A study of Homo sapiens with 10 samples.

Results

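The 2 negative controls of this series are described here: SH-SY5Y cells given a scrambled miRNA (2 libraries) and SH-SY5Y cells given a scrambled siRNA (3 libraries), which are 5 of the 10 libraries. SH-SY5Y is an established human neuroblastoma line, described by the submitters as neural progenitors or neuroblastoma, and it was grown in DMEM/F12 with 10% serum and antibiotic. The scrambled miRNA stood beside 50 nM of a miR-143-3p mimic and the scrambled siRNA beside 100 nM of an siRNA against LncND, a long non-coding RNA of primates; the title of the series names Notch and the sequestering of miRNA. All cells were harvested after 72 h. The labels give neither the dose nor the sequence of the scrambled oligonucleotides, and they do not say whether replicates were separate cultures, so the spread shown here may be technical. Poly(A) RNA was sequenced on an Illumina NextSeq instrument, and the values are FPKM, fragments scaled to transcript length and to the mapped fragments of the library.

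The 2 controls were deposited in 2 separate tables, 1 per experiment. Oligonucleotide type, table and any difference in culture, library preparation or processing between the experiments therefore coincide and cannot be told apart, and no p-value across the tables is given. With 2 libraries against 3, an exact permutation test could not go below 0.1. A gene is called higher or lower where the 2 groups do not overlap and their nearest libraries differ by at least a ratio of 5 to 4 in FPKM + 1 (0.32 on the log2 scale). Of 23423 genes with a number in all 5 libraries, 12553 had a mean of at least 1 FPKM and were compared. Of the calls, 117 higher and 65 lower belong to genes whose lower group averaged under 1 FPKM: they passed this filter only through the group where they are high, so their counts are partly set by it. In the gene lists these are HES7, FAS, SNAI2, NGFR, SLIT2, NRP1, IFI27, FOS, PTPN14, ID4, NPAS2, RORA, HIST1H2AK and HIST1H3E. Differences are scrambled miRNA minus scrambled siRNA in mean log2(FPKM + 1), which understates the fold of genes with low FPKM, and folds are ratios of mean FPKM.

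Small interfering RNAs and miRNA mimics are short double-stranded RNAs of which 1 strand is loaded into an Argonaute protein, where it pairs with transcripts. A scrambled oligonucleotide passes through the same delivery and loading without a designed target and serves as the baseline against which a targeted one is read. SH-SY5Y cells carry a sympathetic neuroblast programme: transcription factors such as PHOX2A, HAND2 and GATA3 and the enzymes and transporters of noradrenaline synthesis and storage.

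Depth differed between libraries. Judged by the spacing of the smallest FPKM values, depth was about 14.2 and 37.6 M fragments for scrambled miRNA 1 and 2 and about 33.2, 27.9 and 31.4 M for scrambled siRNA 1 to 3, which corresponds to 28.5 to 75.1 fragments on a transcript of 2 kb at 1 FPKM. FPKM summed to 478709 and 469594 in scrambled miRNA and to 428238, 445729 and 446973 in scrambled siRNA, a difference that moves with the groups; its part in the results was not tested, but the counts were also taken after scaling by median ratios and after quantile normalization. The noradrenergic genes that mark the line were present in both controls: 24 of 26 noradrenergic genes had a mean of at least 1 FPKM. Endothelial and blood markers summed to at most 2.26 FPKM in any control library, with 14 of 18 under 0.1 in all 5. Epithelial markers summed to between 7.52 and 7.98 FPKM (8 of 18 under 0.1), and Schwann and glial markers to 48.6 to 50.5 in scrambled miRNA and 52.1 to 53.1 in scrambled siRNA (8 of 18 under 0.1). In bulk RNA, fewer cells of a type and less RNA per cell cannot be told apart.

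The 2 baselines differed by far more than their replicates. Of the 12553 genes, 3046 (24.3%) were called, 2102 (16.7%) higher and 944 (7.52%) lower in scrambled miRNA. The groups did not overlap at all for 10067 genes (80.2%), with scrambled miRNA above for 6080 (48.4%) and below for 3987 (31.8%). A gap of at least 1.5-fold was kept by 1002 genes (7.98%), 742 above (5.91%) and 260 below (2.07%), and one of at least 2-fold by 181 (1.44%), 148 above (1.18%) and 33 below (0.263%). The median absolute difference between groups was 0.23 on the log2 scale, against a median range of 0.06 within scrambled miRNA and 0.09 within scrambled siRNA. Across genes, log2 values correlated at 0.997 within scrambled miRNA and at 0.993 to 0.995 within scrambled siRNA, against 0.967 to 0.970 between the controls. As a description over 12547 to 12553 genes with values, each control correlated with its own treated group at a similar level: 0.967 to 0.969 for scrambled miRNA with the mimic, and 0.966 to 0.970 for scrambled siRNA with LncND siRNA. The excess of higher calls depended on the scaling: 69.01% of calls were higher in scrambled miRNA on the deposited values, 54.8% after median-ratio scaling (1603 higher, 1324 lower) and 51.4% after quantile normalization (1506 higher, 1425 lower). On the deposited values the median difference over all genes was 0.07 and 59.0% of genes lay above 0, which is the level to read each group of genes against. Counts of called genes in each list below, on the deposited values, are likewise to be read against 16.7% higher and 7.52% lower. List counts after another scaling are to be read against all 12553 genes under that scaling. These were 1603 higher and 1324 lower after median-ratio scaling, and 1506 and 1425 after quantile normalization. More lower calls in a list after scaling thus go with more lower calls over all genes. In the plot of gene levels in the 2 controls the called genes run along both sides of the diagonal over the whole range of expression.

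**Figure D1:**
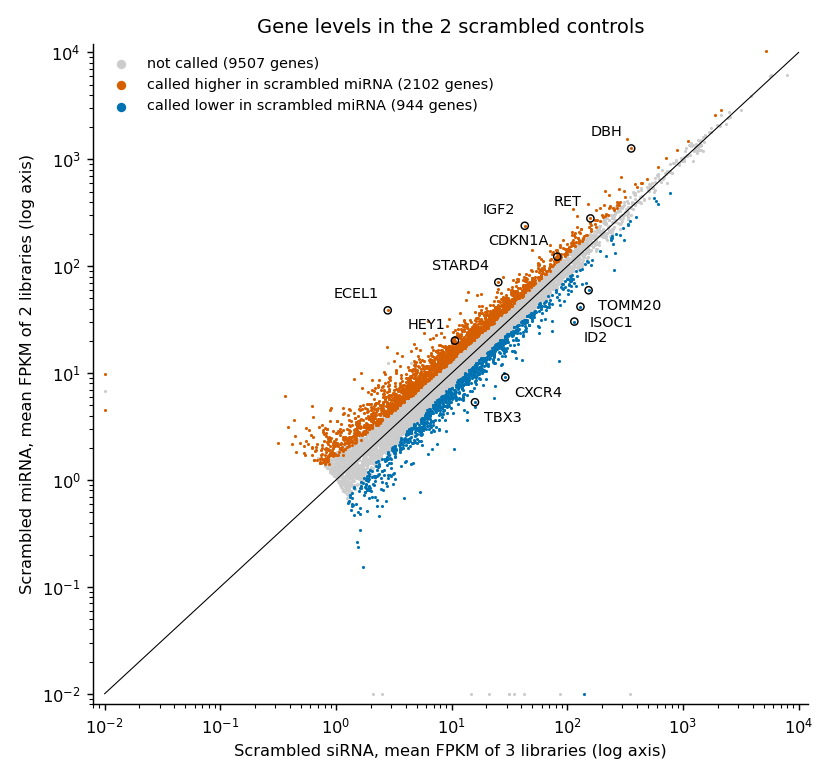
Mean FPKM of each of the 12553 genes in scrambled siRNA (x axis, 3 libraries) and scrambled miRNA (y axis, 2 libraries), both on log axes, with means under 0.01 drawn at 0.01. Orange genes (2102) were called higher and blue genes (944) lower in scrambled miRNA, grey genes were not called, the line marks equal levels, and 12 genes of the text are circled.

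HEY1, CDKN1A and RET stood at different baselines in the 2 controls. HEY1, a transcriptional repressor induced by Notch, was listed at 19.97 and 20.3 FPKM in scrambled miRNA and at 10.6, 10.6 and 10.8 in scrambled siRNA, or 20.1 ± 0.225 against 10.7 ± 0.137 (SD, n = 2 and 3). Every scrambled miRNA library lay above every scrambled siRNA library, by 1.89-fold in the means. CDKN1A (chr6:36644237-36655116), which encodes the cyclin-dependent kinase inhibitor p21, stood at 123 and 122 FPKM against 83.6, 83.4 and 78.6 (123 ± 0.623 against 81.9 ± 2.83), 1.499-fold higher in scrambled miRNA. RET (chr10:43572517-43625797), the receptor tyrosine kinase of the GDNF family ligands, stood at 274 and 286 FPKM against 154, 160.0 and 161 (280.1 ± 8.04 against 158 ± 3.96), 1.77-fold higher. The treated libraries lay on both sides of these baselines. CDKN1A was at 49.0 and 46.2 FPKM with the mimic and at 291, 308 and 310.1 with LncND siRNA, so that it was lower than its own control in the first experiment and higher in the second. RET was at 135 and 129.9 FPKM with the mimic and at 294, 318 and 318 with LncND siRNA. The LncND siRNA libraries thus exceeded the scrambled miRNA level of RET, while the mimic libraries lay below both controls. For HEY1 the mimic libraries (18.0 and 18.8 FPKM) and the LncND siRNA libraries (14.7, 14.6 and 13.5 FPKM) fell between the 2 controls.

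The 12 largest differences upward in scrambled miRNA were led by ECEL1, IGF2 and LAMA4. ECEL1 (chr2:233344537-233352532), a membrane metalloprotease of neurons, stood at 38.8 and 38.5 FPKM in scrambled miRNA and at 2.73, 2.61 and 3.06 in scrambled siRNA, a 13.8-fold difference in the means. IGF2 (chr11:2150347-2170833), a growth factor expressed from an imprinted locus and whose reads can be shared with the overlapping INS-IGF2 and IGF2-AS, stood at 243 and 235 against 43.8, 42.0 and 42.9 FPKM. H19, the non-coding RNA of the same imprinted domain, was also higher, at 18.1 and 17.1 against 7.24, 6.22 and 6.78 FPKM. LAMA4, a laminin chain of basement membranes, was close to absent in scrambled siRNA (0.336, 0.336 and 0.417 FPKM) and at 6.46 and 5.87 FPKM in scrambled miRNA. It passed the filter only through scrambled miRNA. The small GTPase RAB26 was 6.35-fold, the TWEAK receptor TNFRSF12A 4.94-fold, the natriuretic peptide precursor NPPA 6.16-fold and the transcriptional repressor BHLHE40 6.16-fold higher in scrambled miRNA. The retinoic acid carrier CRABP2 (4.09-fold), the urea cycle enzyme ASS1 (4.57-fold), FAM89A (4.10-fold), CYSTM1 (3.63-fold) and the noradrenaline-forming enzyme DBH (3.54-fold) completed the 12 largest. For none of these 12 genes did the 2 groups of libraries come near each other.

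Among genes lower in scrambled miRNA, ID2 (chr2:8822113-8824583), an inhibitor of basic helix-loop-helix factors and a target of BMP signalling, stood at 30.0 and 30.6 FPKM against 113, 116 and 117, a mean 3.80-fold higher in scrambled siRNA. ISOC1 was at 40.7 and 42.9 against 134, 129.8 and 127 FPKM. The groups were far apart for these genes, and the 3 scrambled siRNA libraries lay close together. The chemokine receptor CXCR4 (3.19-fold), the R-spondin receptor LGR5 (3.02-fold), the scaffold protein NEDD9 (3.33-fold), the serine/threonine kinase SGK1 (3.07-fold), LRRN3 (3.91-fold) and TMEFF1 (3.69-fold) were likewise lower in scrambled miRNA. MT1F, a metallothionein, stood at 0.648 and 0.899 against 5.64, 6.14 and 4.29 FPKM, and passed the filter only through scrambled siRNA. Another 2 entries of the lower group are uncertain because near-identical copies share their reads: HNRNPA1P10, a pseudogene of HNRNPA1, at 9.52 and 16.6 against 76.6, 88.6 and 88.5 FPKM, and H3F3A, listed at 0.00129 and 5.74 FPKM in scrambled miRNA 1 and 2. The dot plot of the largest differences shows every library.

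**Figure D2:**
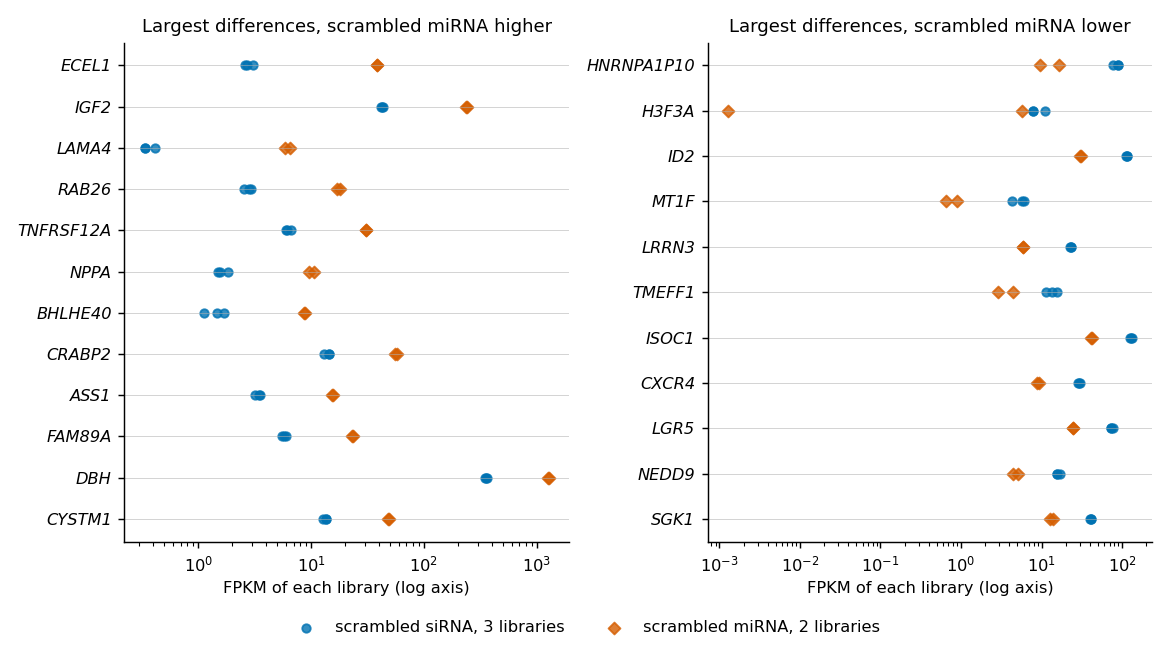
FPKM of each control library (log axis) for the called genes with the largest difference in each direction, 12 higher and 11 lower; orange diamonds are the 2 scrambled miRNA libraries and blue circles the 3 scrambled siRNA libraries. Groups are separate for every gene, and H3F3A is the gene whose 2 scrambled miRNA libraries lie far apart (0.00129 and 5.74 FPKM).

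Most genes of a list of sterol and fatty acid synthesis stood higher together in scrambled miRNA. Of 31 compared genes of this list, 21 were called higher and 0 lower, with a median difference of 0.47, against 16.7% higher, 7.52% lower and a median of 0.07 over all genes; 18 and 17 were higher under the 2 other scalings, and 0 lower. STARD4, a carrier of cholesterol inside cells, stood at 67.9 and 73.6 FPKM in scrambled miRNA and at 26.1, 25.4 and 24.5 in scrambled siRNA. MSMO1, a methylsterol oxidase of the late pathway, stood at 30.7 and 32.3 against 15.1, 13.7 and 14.5 FPKM. DHCR7, which catalyses the last step to cholesterol, stood at 36.4 and 36.6 against 16.9, 18.5 and 17.7 FPKM. In each the groups were separate by a wide margin. INSIG1, which retains the sterol-sensing complex in the endoplasmic reticulum, was 2.01-fold higher, the stearoyl-CoA desaturase SCD 1.79-fold, and SREBF2, which encodes the transcription factor of the sterol pathway, 1.75-fold. ACACA, the first enzyme of fatty acid synthesis, was not called (12.3 and 13.1 against 13.3, 13.7 and 13.1 FPKM). On the fatty acid side ACLY, SCD and ELOVL6 were called higher, while FASN, FADS1 and FADS2 were not called either. The treated libraries divide the list: for 12 of the 21 genes the scrambled miRNA libraries were above all 8 other libraries by at least the same gap, for 3 both groups of the miRNA table lay above both groups of the siRNA table, for 1 the scrambled siRNA libraries lay below the 7 others, and 5 showed none of these. STARD4 is of the first kind, with 26.4 and 27.5 FPKM in the mimic libraries and 27.5, 30.4 and 31.2 in the LncND siRNA libraries, and SREBF2 of the second, with 29.5 and 29.3 in the mimic and 20.5, 22.9 and 22.998 in the LncND siRNA libraries.

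Because these genes stood higher together, the 250 bases before their start sites were searched on both strands for a classical sterol element, TCACNCCAC, and for the box bound by NF-Y, CCAAT, a known partner of the sterol regulatory factors at such promoters. Sequences are those of RefSeq, GRCh38.p14, and 24 of the 31 genes were found in that table. The sterol element stood in 1 of 24 promoters (4.17%), that of SREBF2, against 0.848% of 9193 promoters of compared genes, and the CCAAT box in 16 of 24 (66.7%) against 35.5%. By call, CCAAT stood in 13 of 17 genes called higher and in 3 of 7 not called. Matches describe letters in these windows and do not show binding. The promoters of SREBF2 (chr22:41832855-41833104, plus strand), STARD4 (chr5:111512536-111512785, minus strand) and MSMO1 (chr4:165327419-165327668, plus strand) are printed as the one with the sterol element and the 2 genes of the list that differed most, 5′ to 3′, with matches in capitals (ATTGG is CCAAT read on the opposite strand).
SREBF2: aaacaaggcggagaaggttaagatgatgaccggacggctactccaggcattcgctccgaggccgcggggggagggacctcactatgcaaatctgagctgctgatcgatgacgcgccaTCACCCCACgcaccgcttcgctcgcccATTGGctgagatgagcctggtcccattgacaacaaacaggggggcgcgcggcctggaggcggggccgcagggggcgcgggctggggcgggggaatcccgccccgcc
STARD4: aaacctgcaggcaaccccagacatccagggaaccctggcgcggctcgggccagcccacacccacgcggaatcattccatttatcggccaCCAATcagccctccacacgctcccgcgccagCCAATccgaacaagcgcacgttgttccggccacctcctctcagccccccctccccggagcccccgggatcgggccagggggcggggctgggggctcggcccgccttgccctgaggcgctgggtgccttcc
MSMO1: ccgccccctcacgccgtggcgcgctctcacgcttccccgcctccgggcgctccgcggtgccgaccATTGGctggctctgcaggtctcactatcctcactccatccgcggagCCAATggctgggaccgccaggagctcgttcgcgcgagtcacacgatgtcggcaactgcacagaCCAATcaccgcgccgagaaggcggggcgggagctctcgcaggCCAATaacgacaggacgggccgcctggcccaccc

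**Figure D3:**
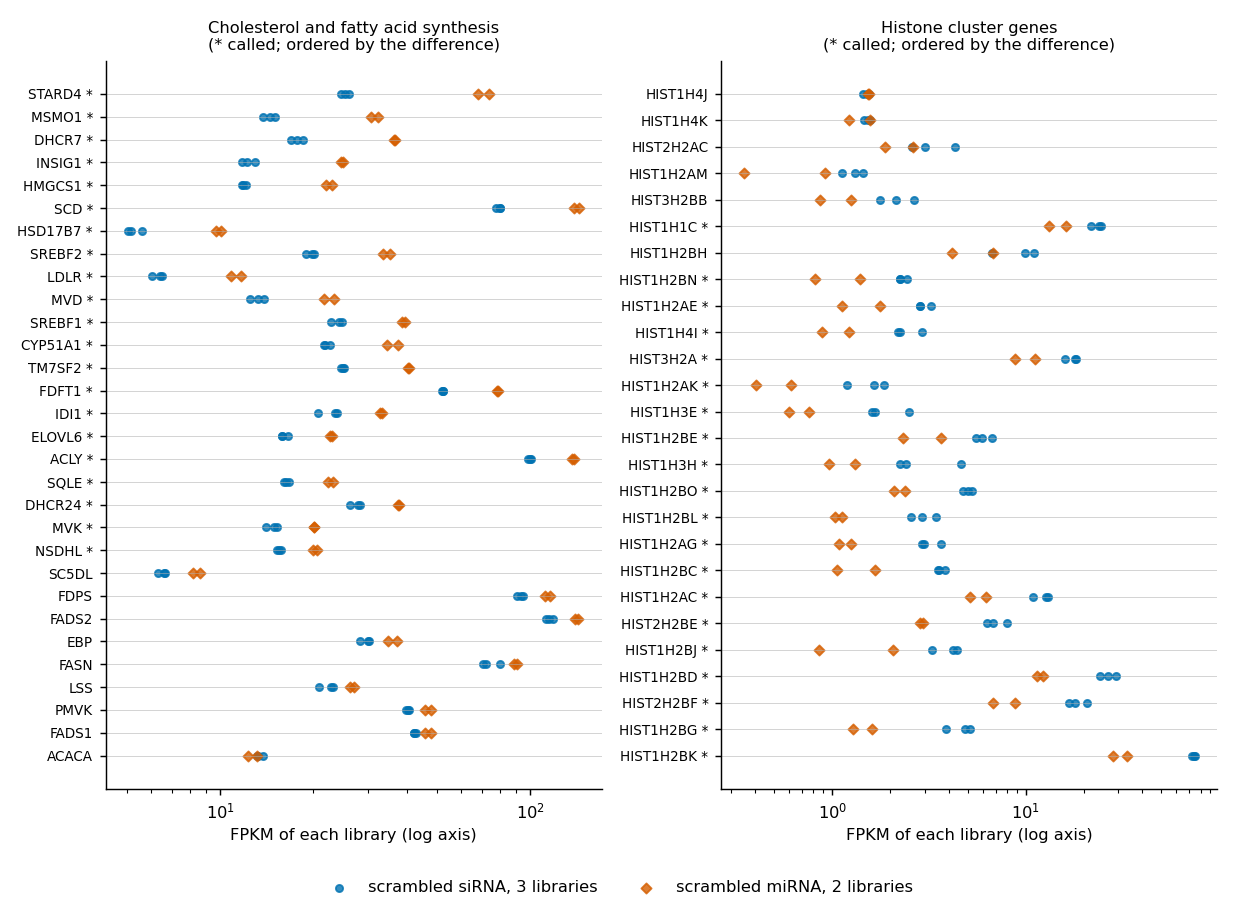
FPKM of each control library (log axis) for 30 of the 31 compared genes of cholesterol and fatty acid synthesis (left) and the 26 compared histone cluster genes (right), ordered by difference; orange diamonds are scrambled miRNA and blue circles scrambled siRNA, and asterisks mark called genes. Of the left panel 21 genes were called higher and of the right panel 20 were called lower in scrambled miRNA.

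Histone cluster genes lay in the other direction. Of 26 compared, 0 were called higher and 20 lower, with a median difference of -0.81, and 21 were lower under each of the 2 other scalings. HIST1H2BK (chr6:27106072-27114637) stood at 33.2 and 28.3 FPKM against 72.0, 74.1 and 74.8. HIST1H2BD stood at 11.4 and 12.2 against 29.3, 26.7 and 24.3, and HIST2H2BF at 6.78 and 8.78 against 20.7, 18.1 and 16.8. In 13 of the 20 the scrambled miRNA libraries were below all 8 others, and in 7 no group stood apart; HIST1H2BK was at 70.1 and 72.9 FPKM with the mimic and at 78.4, 86.6 and 81.4 with LncND siRNA. Most replication-dependent histone transcripts end in a stem-loop without a poly(A) tail, so their level in poly(A) RNA covers the polyadenylated part only. They are also short and near-identical, which makes single members uncertain. The compared genes with a locus of 300 to 1000 bp number 83, of which 22 are on the histone list (16 lower, 0 higher). The other 61 had a median difference of 0.12, with 16.4% higher and 9.84% lower. The part of RNA selection in the histone difference was not tested.

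A part of the DNA replication genes was lower in scrambled miRNA, by smaller amounts. Of 32 G1/S genes, 8 were called lower (25%) and 0 higher, against 7.52% and 16.7% over all genes. Their median was -0.19 (9 and 10 lower under the 2 other scalings). MCM2, a subunit of the replicative helicase, stood at 42.1 and 40.9 FPKM against 57.9, 59.9 and 60.3. The DNA polymerase subunit POLA1 was at 6.27 and 6.41 against 9.83, 10.2 and 9.93, and UHRF1, which maintains DNA methylation after replication, at 26.0 and 25.7 against 35.9, 36.9 and 37.9. In the means scrambled siRNA was 1.43-fold higher for MCM2, 1.57-fold for POLA1 and 1.43-fold for UHRF1. For all 8 called genes the scrambled siRNA libraries were above each of the 7 other libraries: MCM2 was at 28.7 and 27.8 FPKM with the mimic and 34.4, 31.0 and 31.8 with LncND siRNA. PCNA (126 and 127 against 129.7, 131 and 139 FPKM), RRM2 (76.3 and 78.3 against 80.3, 80.9 and 84.5) and E2F1 (27.1 and 25.1 against 25.7, 27.1 and 28.4) were not called. Of 30 G2/M genes 4 were higher and 0 lower. The 13.3% higher is below the 16.7% over all genes, and under both other scalings it was 1 higher and 1 lower. CCNB1, the mitotic cyclin, was among the genes most alike in all 5 libraries (66.6 and 66.3 FPKM against 66.3, 64.9 and 65.8).

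Inhibitors of cyclin-dependent kinases stood higher in scrambled miRNA. Of 7 compared, 5 were called higher and 0 lower, under all 3 scalings. CDKN1C, the imprinted inhibitor p57, was at 27.5 and 25.9 FPKM in scrambled miRNA against 13.0, 13.8 and 14.1 in scrambled siRNA. CDKN2D, which inhibits CDK4 and CDK6, was at 16.6 and 17.8 against 9.16, 9.49 and 9.59. CDKN3, a phosphatase of cyclin-dependent kinases, was at 52.0 and 55.3 against 33.6, 32.4 and 33.6. For each the lowest scrambled miRNA library was well above the highest scrambled siRNA library. CDKN1B, which encodes p27, was not called and leaned the other way (31.0 and 29.9 against 35.0, 34.6 and 37.5), and nor was CDKN2C (44.1 and 44.3 against 46.1, 44.4 and 50.7).

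Of 28 genes activated by p53, 7 were called higher (25%) and 1 lower (6 and 1 after either other scaling). Their median difference was 0.28, against 0.07 over all genes, and 22 of the 28 lay above 0. Over all genes 16.7% were higher and 7.52% lower, and FAS, 1 of the 7, passed the filter only through scrambled miRNA. GDF15, a stress-induced secreted factor, stood at 7.37 and 6.32 FPKM against 2.36, 2.17 and 1.82. RRM2B, a ribonucleotide reductase subunit for DNA repair, stood at 15.8 and 15.9 against 7.48, 7.35 and 7.38, and the antiproliferative gene BTG2 at 30.5 and 30.5 against 16.3, 16.1 and 16.6. TP53I3, an oxidoreductase, lay in the other direction, at 18.0 and 15.2 against 27.7, 29.0 and 27.4. MDM2, the ubiquitin ligase that degrades p53, was not called and overlapped between the groups (17.8 and 17.6 against 18.7, 17.9 and 17.4). Over the 10 libraries, none of the 7 higher genes had scrambled miRNA or scrambled siRNA apart from all others, or the 2 tables apart. GDF15, RRM2B and BTG2 were highest with LncND siRNA. GDF15 was there at 13.6, 14.0 and 14.7 FPKM and with the mimic at 0.736 and 0.404, below both controls. The LncND siRNA libraries had RRM2B at 23.9, 27.0 and 26.0 FPKM and BTG2 at 48.7, 50.6 and 51.7. The mimic libraries had RRM2B at 8.46 and 8.71 and BTG2 at 14.9 and 15.6.

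Among components of Notch signalling, ligands and repressors were called higher in scrambled miRNA and no receptor was called. Notch receptors are cut by proteases after a ligand binds, and the released intracellular domain joins RBPJ on DNA to induce HES and HEY repressors. NOTCH1 was at 2.45 and 2.50 FPKM against 1.61, 1.88 and 1.69, separate between groups but by less than the gap asked for. NOTCH2 (13.0 and 13.3 against 14.6, 14.7 and 13.5), NOTCH3 (23.6 and 25.03 against 21.6, 23.6 and 20.9) and NOTCH4 (1.55 and 1.53 against 1.73, 1.80 and 1.73) lay still closer. Of the 9 receptors and ligands compared, 4 were higher and 0 lower, all of them ligands (3 after quantile normalization, which loses DLK2). DLK1, a non-canonical ligand, stood at 527 and 519 FPKM against 271, 279 and 295. DNER, another, stood at 7.58 and 7.46 against 2.60, 2.79 and 3.06. The canonical ligand JAG2 was low in both, at 2.56 and 2.39 against 1.20, 1.32 and 1.16.

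Of 5 compared HES and HEY repressors, 4 were called higher and 0 lower under all 3 scalings: HEY1, HES4, HES6 and HES7. HES7 passed the filter of 1 FPKM only through scrambled miRNA, the group where it is high. HES6, which antagonises HES1, stood at 51.2 and 50.8 FPKM against 22.4, 24.01 and 25.8. HES4 stood at 15.4 and 14.2 against 6.55, 6.35 and 7.05. HES7, the oscillating repressor of somite segmentation, stood at 4.63 and 4.79 against 0.863, 0.857 and 0.999. For these 3 genes scrambled miRNA was above all 8 other libraries, and HES6 was at 26.6 and 26.7 FPKM with the mimic and at 22.8, 21.6 and 20.7 with LncND siRNA. HES1, a direct Notch target, was not called (4.48 and 3.78 against 3.37, 2.76 and 3.33). Among 22 regulators and coactivators 4 were higher (18.2%) and 4 lower (18.2%), against 16.7% and 7.52% over all genes (3 and 5 after either other scaling). NRARP, a Notch target that feeds back on the pathway, was at 6.51 and 5.79 FPKM against 2.95, 2.76 and 3.19. RBPJ lay the other way, at 7.499 and 8.22 against 16.2, 16.2 and 16.2.

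Most genes of the noradrenergic list were expressed in both controls, at uneven levels. Of 24 compared genes 8 were higher and 6 lower, and this order turned to 6 and 8 after median-ratio scaling and to 5 and 8 after quantile normalization. DBH (chr9:136501485-136524466), which forms noradrenaline from dopamine, stood at 1279 and 1249 FPKM against 348, 359 and 364. GCH1, which makes the cofactor of tyrosine hydroxylase, stood at 83.6 and 87.0 against 37.9, 37.7 and 38.9. The aromatic amino acid decarboxylase DDC stood at 90.9 and 91.2 against 52.1, 53.8 and 56.1. These 3 genes were higher in every scrambled miRNA library. TH, tyrosine hydroxylase, the first enzyme of the pathway, was near absent in both controls and below the filter, at 0.211 and 0.438 FPKM against 0.179, 0.0715 and 0.0633. Summed over the list, FPKM was 3497 and 3521 in scrambled miRNA and 2476 to 2529 in scrambled siRNA, and DBH makes up most of that difference.

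Several transcription factors of the sympathetic lineage lay the other way. TBX3 was lower, at 5.004 and 5.67 FPKM against 15.8, 16.5 and 15.5. GATA3 was at 74.6 and 77.3 against 112, 114 and 110.0, and TBX2 at 38.1 and 38.9 against 52.6, 54.2 and 52.4. PHOX2A differed from them in being higher, at 338 and 356 against 184, 190.1 and 196. ISL1 was also called higher, and GATA2 was called lower. HAND2, which maintains the lineage, was not called (282 and 293 against 336, 317 and 343). Of 13 compared genes of the mesenchymal type of neuroblastoma cells 3 were higher and 3 lower (2 and 4, then 1 and 4, after median-ratio scaling and quantile normalization). These are 23.1% each way, against 16.7% higher and 7.52% lower over all genes. VIM, the intermediate filament vimentin, was at 396 and 401 against 280.4, 286 and 294, a call lost after quantile normalization, and FN1, fibronectin, at 13.5 and 14.8 against 23.5, 23.9 and 22.9.

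Among 15 receptor genes of the RET, ALK and neurotrophin group 3 were higher and 3 lower (3 and 4 after quantile normalization). These are 20% each way, against 16.7% higher and 7.52% lower over all genes. Besides RET, the artemin co-receptor GFRA3 was higher, at 17.7 and 16.7 FPKM against 4.60, 5.18 and 4.96. NGFR, the shared neurotrophin receptor, was at 3.45 and 3.89 against 0.387, 0.400 and 0.514, and passed the filter only through scrambled miRNA. PDGFRA lay the other way, at 17.1 and 17.1 against 28.2, 28.6 and 28.8. The ALK relative LTK was also lower (2.69 and 2.51 against 4.78, 4.96 and 4.66).

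Many genes of synaptic vesicles and of neuronal differentiation stood higher in scrambled miRNA. Of 24 synaptic genes 14 were called higher (58.3%) and 0 lower, with a median difference of 0.45, and after the other scalings 12 and 11 were higher and 1 lower. SYN2, a phosphoprotein that tethers vesicles, was at 11.5 and 11.8 FPKM against 3.80, 3.598 and 3.44. RAB3A (chr19:18307611-18314874), the vesicle GTPase, was at 31.3 and 32.1 against 12.7, 12.9 and 12.5. SYT5, a synaptotagmin of vesicle fusion, was at 7.08 and 6.95 against 2.68, 2.42 and 2.66. For 8 of the 14 genes, these 3 included, the scrambled siRNA libraries lay below all 7 others. RAB3A was at 37.6 and 37.3 FPKM with the mimic and 29.1, 32.2 and 30.9 with LncND siRNA, near the level of scrambled miRNA.

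Of 29 neuronal differentiation genes 12 were higher and 2 lower (9 and 8 higher, 2 lower after the other scalings), and for 8 of the 12 the scrambled siRNA libraries again lay below the 7 others. CNTN1, an adhesion molecule of axons, was at 25.3 and 25.9 FPKM against 10.8, 10.4 and 10.7. MAPT, the microtubule protein tau, was at 14.9 and 13.8 against 6.10, 6.31 and 6.21. SCG2, a granin of dense-core vesicles, was at 159 and 156 against 74.3, 66.1 and 74.1. The 2 lower genes were DCX and DPYSL3, for which scrambled miRNA lay below all 8 other libraries. Axon guidance genes lay in both directions, 7 of 27 higher (25.9%) and 5 lower (18.5%) under all 3 scalings. Over all genes 16.7% and 7.52% were called on the deposited values. SLIT2, a repellent, was at 3.08 and 3.40 FPKM against 0.862, 0.739 and 0.666, and passed the filter only through scrambled miRNA. PLXNA4, a receptor of semaphorins, was at 2.85 and 3.008 against 7.87, 8.22 and 7.14, while the semaphorin SEMA3A was higher (4.75 and 4.44 against 1.68, 1.49 and 1.58).

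Glycolytic and hypoxia-response genes were higher as well, 18 of 30 (60%) with 1 lower and a median difference of 0.46 (15 and 12 higher after the other scalings). P4HA2, a subunit of the enzyme that hydroxylates prolines in collagen, was at 25.9 and 25.6 FPKM against 10.9, 11.2 and 11.99. The aldolase ALDOC was at 71.2 and 73.5 against 36.7, 36.0 and 38.8, and the aldolase ALDOA at 504 and 502 against 298, 308 and 315. Both aldolases are among the 9 genes of the 18 that divided the 2 tables over all 10 libraries. ALDOA was at 516 and 524 FPKM with the mimic and at 343, 325 and 326 with LncND siRNA. LDHA, which forms lactate, was at 438 and 442 against 317, 304 and 322 and was not apart in that way. KDM3A, a histone demethylase induced by hypoxia, was the 1 gene lower (10.7 and 11.1 against 16.4, 16.4 and 17.5), and the hexokinase HK2 was not called (19.3 and 19.1 against 22.2, 22.2 and 22.6).

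Of 21 genes of the endoplasmic reticulum and unfolded protein response 11 were higher and 2 lower (9 and 7 higher, 2 lower after the other scalings), and for 9 of the 11 scrambled miRNA was above the 8 other libraries. MANF, a secreted factor induced by this stress, was at 159.5 and 157 FPKM against 87.2, 84.2 and 88.7 in the controls. It was at 84.8 and 81.1 with the mimic and at 81.7, 65.8 and 64.8 with LncND siRNA, so that scrambled miRNA alone stood high. SEL1L, an adaptor of ER-associated degradation, was lower, at 5.63 and 5.91 against 11.2, 10.7 and 10.8. Of 22 cytosolic heat shock genes 9 were higher and 2 lower (9 and 8 higher after the other scalings). The small heat shock protein HSPB1 was at 461 and 458 FPKM against 226, 231 and 232. HSP90AA1, an abundant chaperone, lay the other way, at 478 and 493 against 797, 730.1 and 797. HSPA1A and HSPA1B were called higher, but they are near-identical copies whose reads cannot be separated.

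The amino acid response and tRNA synthetase list had 4 of 37 higher, a share below that over all genes, and 2 lower (3 and 3, then 3 and 8, after the other scalings). DDIT3, a factor of the integrated stress response, was at 25.4 and 23.4 FPKM against 9.96, 9.92 and 10.8. ASNS, asparagine synthetase, lay the other way (47.0 and 44.8 against 62.0, 63.2 and 66.1). Of 25 immediate early genes 11 were higher and 2 lower (11 and 10 higher after the other scalings). The ERK phosphatase DUSP5 was at 7.16 and 7.26 FPKM against 2.28, 2.18 and 2.05, and EGR1, a zinc finger factor, at 10.5 and 10.1 against 5.03, 4.47 and 5.61. MYC was lower, at 12.7 and 13.0 against 18.5, 19.1 and 19.1.

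Of 28 TGF-beta and BMP genes 3 were higher and 7 lower (2 and 10 after either other scaling), with a median difference of 0.00. ID2 was the largest. SMAD6, an inhibitory SMAD induced by BMP, was at 1.78 and 2.08 FPKM against 6.68, 6.49 and 7.24. BAMBI, a pseudoreceptor, was at 16.1 and 15.2 against 33.2, 35.3 and 37.9, and SMAD9, a signal transducer of BMP receptors, at 16.1 and 16.05 against 33.9, 34.2 and 32.6. The 3 genes called higher were the ligands BMP7 and TGFB1 and the signal transducer SMAD1, while the ligands TGFB3 and BMP2 were not called. BMP7 was at 12.2 and 12.8 FPKM against 4.63, 4.91 and 4.97, and TGFB1 at 12.7 and 14.1 against 6.43, 6.35 and 6.16. The BMP targets ID1 (54.8 and 54.7 against 48.9, 49.4 and 49.5) and ID3 (53.04 and 52.4 against 65.9, 72.9 and 69.6) were not called. Both were separate between groups by less than the gap asked for, ID1 higher and ID3 lower in scrambled miRNA.

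Of 39 listed genes of the interferon and double-stranded RNA response only 19 were compared. Those below the filter included IFIT1, IFIT2, IFIT3, MX1, MX2, OAS2 and OAS3 and the sensors IFIH1, DHX58 and TLR3. Of the 19, 7 were higher (36.8%) and 1 lower (5.26%), against 16.7% and 7.52% over all genes (5 and 3 after either other scaling). IFI27, 1 of the 7, passed the filter only through scrambled miRNA. HLA-C, of the class I family whose members are alike in sequence, was at 55.2 and 55.3 FPKM against 18.0, 18.0 and 18.2. The immunoproteasome subunit PSMB8 was at 5.40 and 4.73 against 2.04, 1.59 and 1.55. OAS1, a sensor of double-stranded RNA, lay the other way at a low level (1.11 and 1.11 against 3.41, 2.65 and 2.79). Of 16 genes of Argonaute proteins and miRNA processing 2 were higher (12.5%) and 1 lower (6.25%), near the 16.7% and 7.52% over all genes (1 and 2 after either other scaling). DGCR8, the partner of DROSHA, was at 9.39 and 8.53 FPKM against 12.5, 13.8 and 13.1. The plot of gene lists gives the shares for every list with at least 5 compared genes.

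**Figure D4:**
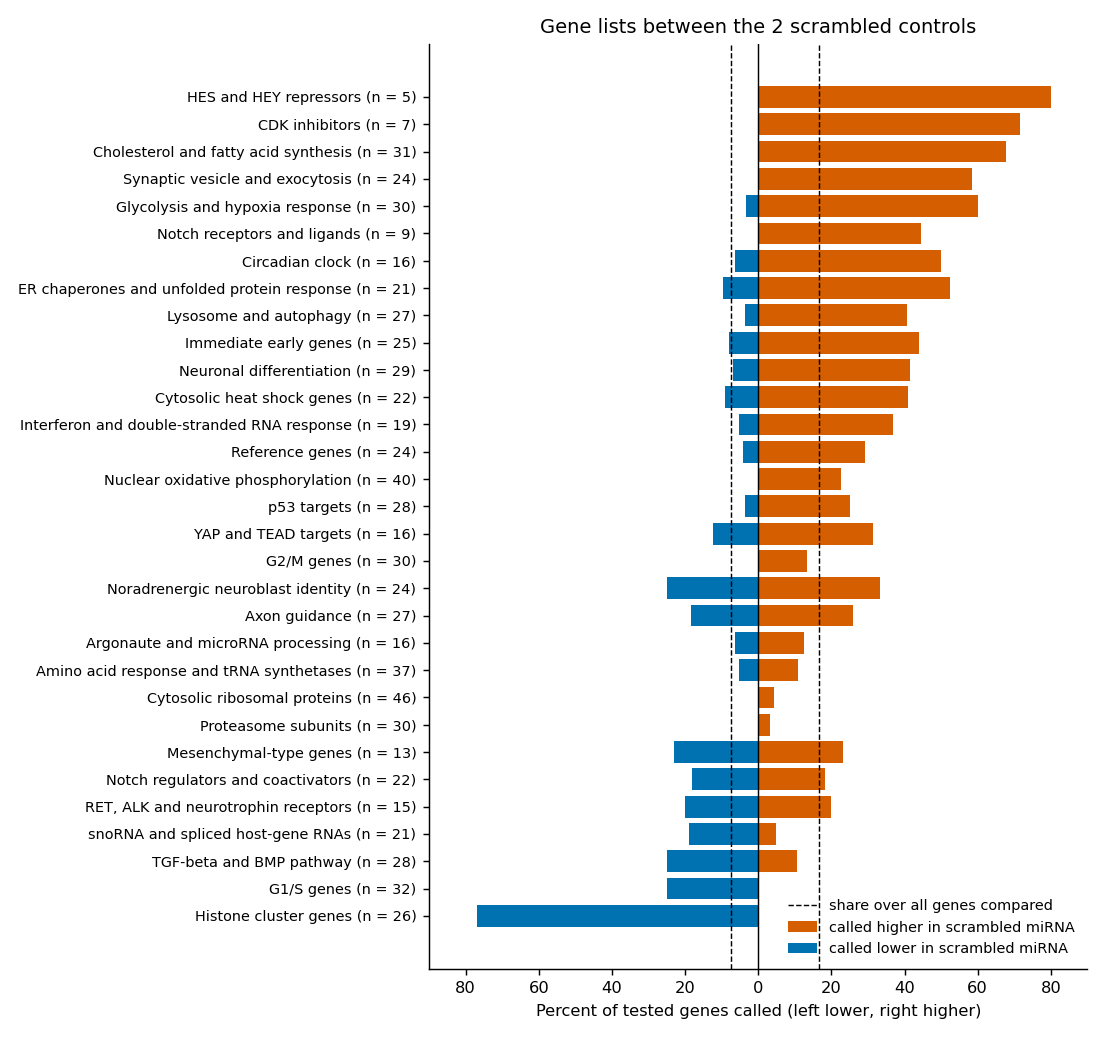
Percent of the compared genes of each list called higher (orange, right) or lower (blue, left) in scrambled miRNA, with the number compared in parentheses; dashed lines mark the shares over all 12553 genes (16.7% and 7.52%). HES and HEY repressors, CDK inhibitors and sterol synthesis genes lie at the top, and G1/S and histone genes at the bottom.

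Of the 605 most abundant genes, those averaging 100 FPKM or more, 19.5% were higher and 5.45% lower, against 16.7% and 7.52% over all genes. Of 46 cytosolic ribosomal protein genes 2 were called higher (4.35%) and 0 lower, with a median of -0.00, and of 30 proteasome subunits 1 was higher (3.33%) and 0 lower. Among transcripts of loci of at least 300 bp, 3 of the most abundant, RPS27 (6380.3 and 6021 against 5649.6, 5539 and 6099 FPKM), RPL41 (4008 and 3820.1 against 3911, 3787 and 4019.6) and EEF1A1 (2515 and 2449 against 2530.4, 2535 and 2589.8), overlapped or nearly met between groups. Oxidative phosphorylation genes depended on the scaling, with 9 of 40 higher on the deposited values, 3 after median-ratio scaling and 0 after quantile normalization. At a mean of at least 50 FPKM the genes most alike in the 5 libraries included YIPF3 (65.7 and 65.1 FPKM against 65.6, 64.9 and 66.1), IARS2 (64.8 and 64.7 FPKM against 63.5, 63.5 and 64.2) and SMARCB1 (78.6 and 77.9 FPKM against 77.3, 78.2 and 79.4). Common reference genes were not all level: of 24, 7 were higher and 1 lower (4 and 3 higher, 1 lower after the other scalings). GAPDH was at 2682 and 2555 FPKM against 1877, 1909 and 1947, HPRT1 at 47.1 and 49.8 against 32.4, 31.8 and 34.3, and RAB7A at 62.4 and 65.8 against 95.6, 94.3 and 97.9; the call of GAPDH was lost under both other scalings.

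LncND siRNA 1 stands apart from the other libraries in its FPKM sum, 1678230 against 429946 to 467303 in the 4 other treated libraries, through 1 short gene, RNY4, listed at 1224670 FPKM there and at 0.001 in the other treated libraries. RNY4 is in none of the counts that follow. The treated libraries, which were not used to call genes, share the tables with the controls and received other oligonucleotides. Of 2101 genes called higher in scrambled miRNA with a value in all 10 libraries, scrambled miRNA stood above the 8 others for 530, scrambled siRNA below the 7 others for 411, the 2 tables were apart for 249, and 911 fell in none of these. Of 943 called lower the numbers were 268, 100, 94 and 481. Here and in the lists above each gene is counted once, with the division of the tables taken first, then scrambled miRNA, then scrambled siRNA. TOMM20 (chr1:235272658-235292256), a receptor of the mitochondrial import machine, shows the first kind: 59.5 and 59.6 FPKM in scrambled miRNA against 151, 152 and 156 in scrambled siRNA, 142.9 and 149.8 with the mimic and 161, 156 and 155 with LncND siRNA. MBTPS1, the site-1 protease that cleaves sterol regulatory factors, was another: 16.5 and 15.8 FPKM in scrambled miRNA, 34.1, 34.7 and 35.6 in scrambled siRNA, 34.5 and 34.8 with the mimic and 33.9, 35.6 and 35.9 with LncND siRNA. RAB3A and MCM2, described above, are of the second kind. IGF2 and TBX3 divided the tables: IGF2 was at 699.9 and 633 FPKM with the mimic and 29.5, 25.9 and 26.6 with LncND siRNA, and TBX3 was at 5.65 and 4.82 with the mimic and 23.1, 26.2 and 23.97 with LncND siRNA. With each pattern counted on its own over all 12545 genes with 10 values, scrambled miRNA stood apart for 550 genes above (4.38%) and 275 below (2.19%). Scrambled siRNA stood apart for 106 above (0.845%) and 437 below (3.48%), and the tables for 249 (1.98%) and 94 (0.749%). The mimic stood apart for 242 above (1.93%) and 377 below (3.01%), and LncND siRNA for 429 above (3.42%) and 164 below (1.31%).

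Between the treated groups, mimic minus LncND siRNA, 58.2% of the genes called higher in scrambled miRNA had the same sign, against 46.0% of all genes, and 70.3% of those called lower, against 53.9%. The same call was made for 417 (19.8%, against 7.88% over all genes) and 209 (22.2%, against 11.1%). Calls in the opposite direction numbered 249 of the genes higher (11.9%, against 11.1%) and 39 of the genes lower (4.14%, against 7.88%). CXCR4 and NEDD9 were of the last kind: CXCR4 was at 53.5 and 56.7 FPKM with the mimic and 17.1, 14.4 and 15.0 with LncND siRNA, and NEDD9 at 24.6 and 25.7 with the mimic and 8.25, 7.86 and 7.74 with LncND siRNA. The treated groups differ in oligonucleotide and table as the controls do.

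**Figure D5:**
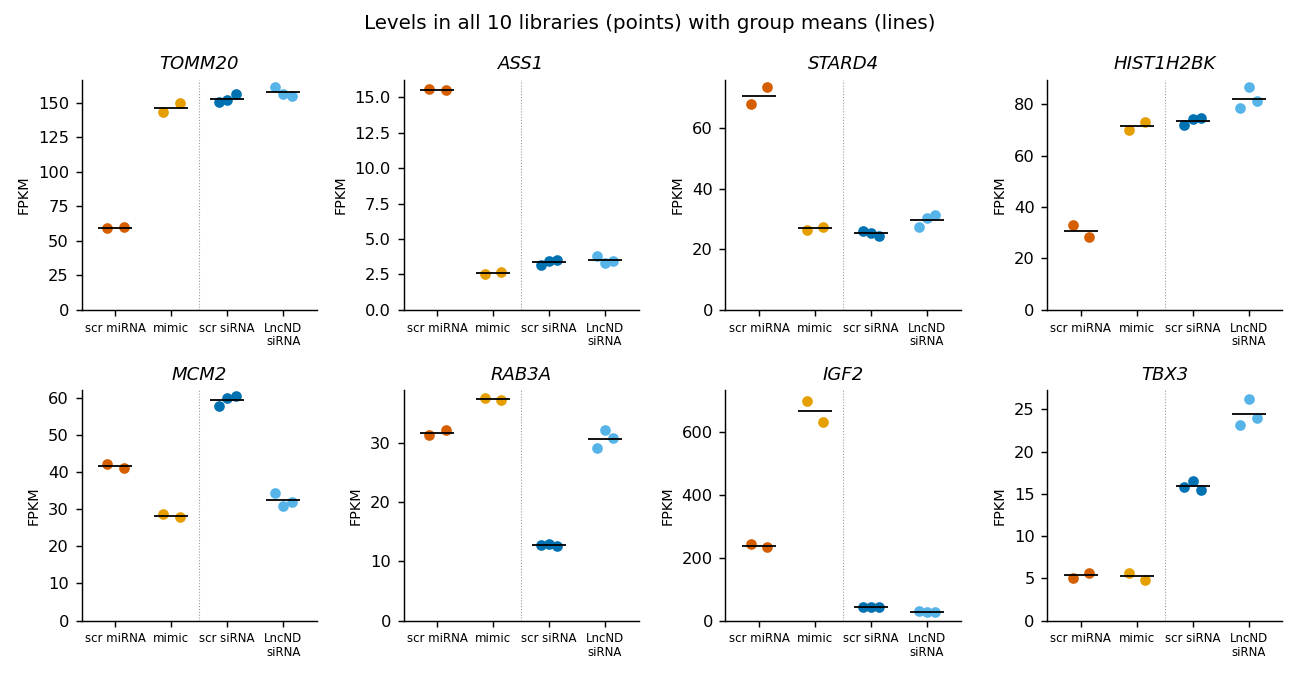
FPKM in all 10 libraries (points) with group means (lines) for 8 genes; groups left of the dotted line stand in the miRNA table and groups right of it in the siRNA table. For TOMM20, ASS1, STARD4 and HIST1H2BK scrambled miRNA stands apart, for MCM2 and RAB3A scrambled siRNA stands apart, and for IGF2 and TBX3 the tables divide.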

How the data were processed

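The deposited values are FPKM, entered in the data record as scores because status words replace some numbers, and each experiment has a table of 25275 rows with 23609 gene names. Per the submitters' processing notes, TopHat 1.0.0, Cufflinks and the hg19 build were used, and the labels' protocols name poly(A) selection and a stranded TruSeq kit. For the gene annotation, the use of strand in counting, any scaling across libraries or tables and any filtering, no statement was found: not given in the sources used here. The 2 tables were joined row by row, and 1304 rows off the assembled chromosomes and 285 rows with a status word in a control were left out. The lowest FPKM, 0.001, stands for 0. Comparisons were made in Python 3.11.15 (numpy 2.4.6, pandas 2.3.3) on log2(FPKM + 1), with no p-value, and the calling step was tested on simulated data. Alternatives covered scaling, pseudocount, filters, locus span, the gap, each library left out and a replicate block.

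The members and the 34 gene lists were chosen with earlier results of these data known. Genes named were the 12 largest differences each way (mean of at least 5 FPKM in the higher group, locus of at least 300 bp), up to 4 called members per list, HEY1, CDKN1A, RET, NOTCH1 to NOTCH4, HES1, the 10 most abundant genes and the 8 most alike of at least 50 FPKM. All other genes, among them members not called, TOMM20 and MBTPS1, were named after their values were seen. Coordinates of genes are hg19, with 1 added to each deposited start so that they count from 1, and promoters are RefSeq, GRCh38.p14. A few genes that enter the counts are not reported here by name.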

Additional observations from a re-analysis of the deposited data

How the results depend on the processing

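The number of called genes followed the gap required: 10067 genes (6080 higher, 3987 lower in scrambled miRNA) did not overlap between the controls, 1002 (742 and 260) kept a gap of at least 1.5-fold and 181 (148 and 33) of at least 2-fold, against 3046 (2102 and 944) with the gap used in the text. Scaling set the balance of the directions: after quantile normalization 1506 genes were higher and 1425 lower, with 2450 of the 3046 calls shared, and after median-ratio scaling 1603 and 1324, with 2547 shared. A pseudocount of 0.1 gave 3558 calls, no filter on low values 3238 and a mean of at least 5 FPKM 2201. Leaving out each library in turn gave 3238 to 3609 calls (2215 to 2445 higher, 1020 to 1165 lower). Differences taken within replicate numbers 1 and 2, as a replicate block, gave 3604 calls (2457 higher, 1147 lower). Deviations of same-numbered libraries correlated at 0.01 and 0.02 across genes, so no pairing by number was seen. The deviations of the 2 scrambled miRNA libraries mirror each other, so these values cannot show that the libraries were unpaired. Because a call rests on the nearest libraries, leaving out a library, the block, the smaller pseudocount and dropping the filter cannot lose a call, and the stricter filters only drop genes, so these show nothing of stability; only the 2 scalings could. Of 137 called genes that the naming rule gives, 124 kept the call under both scalings and 13 lost it: PLK1, HMMR, NEK2, RPLP1, SDHB, CYC1, MOV10 and GAPDH under both, and DLK2, VIM, COX5A, NDUFB8 and PGK1 after quantile normalization only. The median difference of the proteasome list changed sign to -0.035 after quantile normalization, from 0.11. That of the circadian list changed to -0.12 with a mean of at least 5 FPKM, from 0.37; this filter leaves 7 of its 16 genes.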

Other observations

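Of 16 circadian clock genes 8 were called higher (50%) and 1 lower (6.25%) in scrambled miRNA (5 and 2 after either other scaling). Over all genes 16.7% were higher and 7.52% lower on the deposited values. NPAS2 and RORA, 2 of the 8, passed the filter only through scrambled miRNA. The median of this list changed sign with a mean of at least 5 FPKM, as given above. PER1, a light-responsive repressor of the clock, was listed at 16.2 and 16.6 FPKM against 7.99, 7.99 and 8.25, DBP, an output factor of the clock, at 11.2 and 10.8 against 5.23, 5.58 and 5.64, and NR1D1, a nuclear receptor of the clock, at 3.66 and 3.14 against 1.60, 1.48 and 1.501. Of 27 lysosome and autophagy genes 11 were higher and 1 lower (10 and 1 after either other scaling). GABARAPL1, of the autophagosome membrane, was at 8.45 and 8.48 FPKM against 3.55, 3.53 and 4.05. For 8 of the 11 none of the 3 patterns over 10 libraries applied.

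Of 16 genes of the YAP and TEAD group 5 were higher and 2 lower (4 and 2 after either other scaling), the latter including TEAD2 (36.2 and 36.1 FPKM against 59.7, 60.9 and 61.7). Of 21 host genes of small nucleolar RNAs and other spliced non-coding RNAs 1 was higher, H19, and 4 were lower: SNHG4, SNHG15, TUG1 and EPB41L4A-AS1, the last an antisense gene whose reads depend on how strand was counted.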
